A study of Mus musculus with 20 samples.

Results

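Sox10, Ret, Ednrb, Elavl4, Tubb3 and Stmn2 are genes used to follow the neural crest cells of the gut wall and the enteric neurons that arise from them. These 6 genes, of 43280 in the count tables, were picked by symbol, with earlier results of these data known, and their RNA was read in every library together with open chromatin at their promoters. The study asked what the Polycomb protein Eed does in the mesenchyme of the embryonic stomach and intestine, and in the mesenchyme of the adult intestine. Eed is a core subunit of Polycomb repressive complex 2, which methylates histone H3 on lysine 27 at silent genes. RNA was sequenced from 12 libraries in 6 groups of 2, and open chromatin was mapped by ATAC-seq in the embryonic groups.

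The embryonic groups were stomach and intestine of embryos at E13.5 (embryonic age in days), labelled C57BL/6. The study's reporting summary lists the Bapx1-cre line as C57BL/6, the floxed Eed and Pdgfrβ-CreERT2 lines as 129 and C57BL/6 mixtures and the Rosa26mTmG line as a mixture of C57BL/6J and CD-1, so the genetic background was mixed in embryos and adults. Control embryos carried Bapx1-cre with the Rosa26mTmG reporter, which turns from red to green fluorescence where Cre has acted, and knockout embryos carried floxed Eed alleles (Eed fl/fl) on top of both. Bapx1, also called Nkx3-2, drives Cre in gut mesenchyme, and green cells that excluded the dead-cell dye Sytox Blue were collected by flow sorting, so the gate did not select neural crest cells. Spike-in RNA of known amount was added to the samples. In the adult groups a tamoxifen-inducible Cre under the Pdgfrb promoter (Pdgfrβ-CreERT2) marked green cells of the small intestine after its villi were scraped off, with Rosa26mTmG in both groups and Eed fl/fl in the knockout. All adult mice received tamoxifen. Here control and knockout stand for these genotypes, and the 2 libraries of a group are its replicates.

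Neural crest cells enter the foregut and migrate along the gut to form the enteric nervous system. Sox10 is the transcription factor that keeps these progenitors multipotent, Ret is the receptor tyrosine kinase for GDNF family ligands, and Ednrb is the receptor for endothelin 3, and inherited loss of any of these genes leaves the distal bowel without ganglia. As neurons form they express the RNA-binding protein Elavl4 (HuD), the tubulin Tubb3 that is recognised by the TUJ1 antibody, and stathmin 2 (Stmn2), which regulates microtubules in growing axons.

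Embryonic libraries held 30236159 to 39606157 counts assigned to genes, and adult libraries 11404712 to 15903642. Levels of a gene across libraries are given as CPM, counts scaled to a common library size with TMM factors, and levels of the 6 genes are set side by side as TPM, which also divides by gene length. Sums over a list are in CPM, and the gene named as top of a marker list is the one with the highest CPM, with no division by length. A gene passed the test in a comparison, and is written as higher or lower, when the Benjamini-Hochberg adjusted p of the edgeR quasi-likelihood test was under 0.05 and the log2 fold change was above 1 in size. Low-count filtering kept 16218 genes in the embryo, the 6 members included, and 15039 in the adult, with 5 of the 6 members: Sox10 was not tested there. The p-values measure only the spread between these libraries, and with groups of 2 the smallest two-sided p that an exact permutation test could reach is 0.333. Counting intervals are 95% exact intervals and, like detection floors, cover counting error only.

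Eed itself served as the check of the knockout. Its RNA stood at 38.1 and 40.1 CPM in control intestine, 10.7 and 8.59 in knockout intestine, 40.1 and 41.5 in control stomach and 11.5 and 7.40 in knockout stomach. Every embryonic knockout library lay below every embryonic control library. The log2 fold change was -2.11 ± 0.21 (SE; adjusted p = 0.0017) in stomach, where scaling to spike-in totals gave 0.145, and -2.02 ± 0.21 (adjusted p = 0.0046) in intestine, where that scaling gave -0.233; on the spike-in scale the median of all tested genes was moved by 2.39 in stomach and by 1.85 in intestine. Adult Eed stood at 29.7 and 33.4 CPM in control and 25.7 and 25.0 CPM in knockout, and this difference did not pass the test (log2 fold change -0.32 ± 0.21, adjusted p = 0.32). Counts cover all exons of the gene, including any that the floxed allele keeps. Ezh2 and Suz12, the other core subunits of the complex, passed the test in none of the 6 comparisons.

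Levels of the 6 genes differed widely within a library. In control embryonic intestine the mean TPM was 144 for Ednrb, 1.74 for Elavl4, 1.14 for Tubb3, 0.683 for Stmn2, 0.611 for Sox10 and 0.213 for Ret. Ednrb was also highest by TPM in control stomach (40.1), in both adult groups (241 in control, 51.4 in knockout) and in both embryonic knockout groups (93.9 in intestine, 47.7 in stomach). Stmn2 had the next highest mean TPM in embryonic knockout libraries, with 9.11 in intestine and 23.7 in stomach. The mesenchyme marker list summed to between 11147 and 19206 CPM in embryonic libraries, with Col3a1 at the highest CPM in each. In bulk RNA, fewer cells of a type and less RNA per cell cannot be told apart. Which cells held the Ednrb RNA was not tested, so its values are not read as a measure of neural crest cells.

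Sox10 lies at chr15:79154913-79164490 (GRCm38/mm10 here and throughout, minus strand). It stood at 0.534 and 0.572 CPM in control intestine, 0.765 and 0.514 in knockout intestine, 0.348 and 1.15 in control stomach and 0.590 and 1.07 in knockout stomach. These groups overlapped in every pair compared. Adult libraries held 0 and 2 Sox10 counts in control and 1 and 1 in knockout, so both adult groups were at or under the detection floor of 3 counts per library and no fold is given. In the library with 0 counts that floor is 0.220 CPM, and the counting interval reaches 0.270 CPM.

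Ret lies at chr6:118151748-118197744 (minus strand). Its level was 0.506 and 0.538 CPM in control intestine, 2.16 and 0.999 in knockout intestine, 1.04 and 1.91 in control stomach and 1.61 and 2.11 in knockout stomach. Control intestine was the lowest group, below every other embryonic library. In the adult Ret stood at 1.54 and 0.140 CPM in control and 1.91 and 4.79 CPM in knockout, and the control libraries, with 21 and 2 counts, differed from each other more than the nearest control and knockout libraries did.

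Ednrb lies at chr14:103814625-103844173 (minus strand). It stood at 201 and 188 CPM in control intestine, 86.0 and 162 in knockout intestine, 49.0 and 57.6 in control stomach and 56.3 and 63.7 in knockout stomach. Intestinal libraries of both genotypes lay above all stomach libraries, and knockout intestine lay between control intestine and stomach, with its replicates far apart. Adult Ednrb stood at 468 and 289 CPM in control and 112 and 128 CPM in knockout, with both controls above both knockouts.

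Elavl4 lies at chr4:110203722-110351909 (minus strand). Embryonic levels were 3.20 and 3.06 CPM in control intestine, 3.72 and 2.43 in knockout intestine, 2.55 and 2.88 in control stomach and 3.19 and 3.26 in knockout stomach. All 8 of these libraries lay in a narrow band. Adult control libraries held 2 and 3 Elavl4 counts (0.146 and 0.210 CPM) and adult knockout libraries 99 and 107 counts (9.94 and 8.27 CPM), so the adult groups were far apart.

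Tubb3 lies at chr8:123411424-123422015 (plus strand) and shares no exon base with another gene. It stood at 0.787 and 0.639 CPM in control intestine, 1.77 and 0.884 in knockout intestine, 0.435 and 1.25 in control stomach and 1.61 and 2.33 in knockout stomach. In both organs the knockout libraries lay above the control libraries, by a small margin in each. Adult Tubb3 had 0 and 8 counts in control and 35 and 33 in knockout, or 0 and 0.561 against 3.51 and 2.55 CPM.

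Stmn2 lies at chr3:8509360-8561606 (plus strand). Its level was 1.21 and 1.35 CPM in control intestine, 22.7 and 11.2 in knockout intestine, 5.28 and 4.05 in control stomach and 38.5 and 44.3 in knockout stomach. The 4 embryonic groups did not overlap: control intestine was lowest, then control stomach, knockout intestine and knockout stomach. Adult Stmn2 stood at 2.85 and 1.40 CPM in control and 6.92 and 3.32 CPM in knockout, where the lower knockout library lay close to the higher control library.

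**Figure D1:**
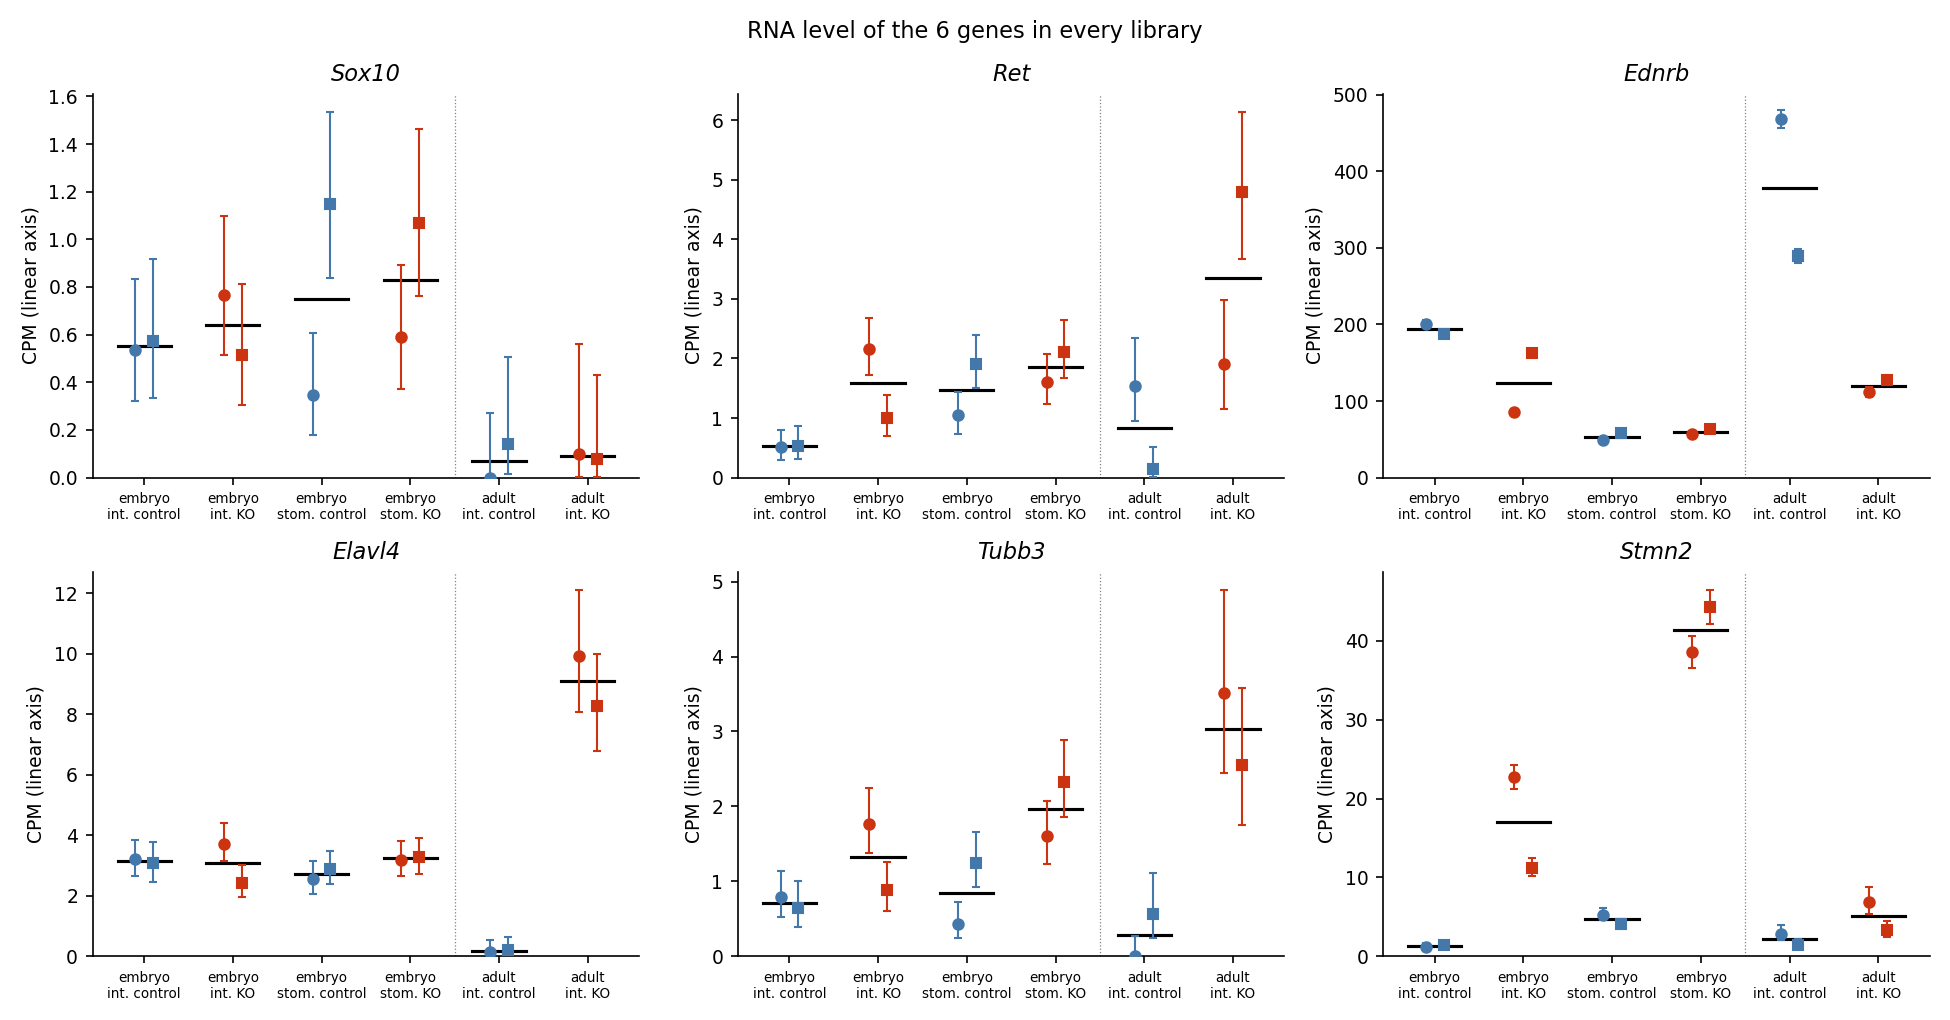
RNA level (CPM, linear axis from 0, a separate scale for each gene) of the 6 genes in the 12 libraries, blue for control and red for Eed knockout, circles for replicate 1 and squares for replicate 2, with 95% counting intervals as bars and group means as black lines; int. is intestine and stom. is stomach. Stmn2 rises from a mean of 4.66 to 41.4 CPM in knockout stomach and Elavl4 from 0.178 to 9.10 CPM in the adult knockout, whereas Elavl4 in the embryo stays between 2.43 and 3.72 CPM.

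Control intestine was compared with control stomach to ask how the organs differ before Eed is removed. Among the receptors, Ednrb was higher in intestine, 194 ± 9.08 against 53.3 ± 6.11 CPM (mean ± SD, n = 2 each), a 3.65-fold difference (log2 fold change 1.87 ± 0.27 SE, adjusted p = 0.0067). Among the neuronal genes, Stmn2 was lower in intestine, 1.28 ± 0.0976 against 4.66 ± 0.864 CPM, also 3.65-fold (-1.87 ± 0.36, adjusted p = 0.023). Thus 1 of the 6 genes passed upward and 1 downward, beside 1.68% and 3.39% of all genes tested, and the median log2 fold change of the 6 was -0.35 with that of all genes at 0.00. Ret was at -1.50 ± 0.48 (adjusted p = 0.14) and was called without the low-count filter (-1.51), while Sox10, Elavl4 and Tubb3 lay between -0.45 and 0.21, and Tubb3, at -0.25, turned to 0.01 on the spike-in scale. With 1 library left out Sox10 ran from -1.05 to 0.666 and Tubb3 from -0.80 to 0.719. Scaling to spike-in totals ended both calls, with log2 fold changes of 2.16 for Ednrb and -1.56 for Stmn2. Stmn2 also lost its call without any 1 of the 4 libraries (adjusted p 0.064 to 0.18), and Ednrb without control stomach replicate 1 (1.76, adjusted p = 0.061, within a leave-one-out range of 0.035 to 0.061).

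Among the surrounding lists the neuronal one had the most genes lower in control intestine, 7 of 18 tested with 0 higher, beside 3.39% of all genes lower and 1.68% higher. They included the microtubule protein Dcx (1.44 against 34.9 CPM, log2 fold change -4.60 ± 0.30, adjusted p = 0.00032) and the ubiquitin hydrolase Uchl1 (6.60 against 24.3 CPM, -1.88 ± 0.22, adjusted p = 0.0028). The list median was -1.17. Summed over the 19 genes of that list, CPM was 56.8 and 68.7 in control intestine and 159 and 133 in control stomach. Among GDNF and endothelin ligands and receptors the co-receptor Gfra2 was higher (16.1 against 5.74 CPM, 1.48 ± 0.26, adjusted p = 0.016), while Gfra1 and Gfra3 were lower, the latter at -2.88 ± 0.35 (adjusted p = 0.0034), of 12 tested. In the gene families of the members, 2 of 13 were lower, Elavl2 and Sox9 (-3.40 ± 0.22, adjusted p = 0.00032). Of the other lists, 1 of 12 neural crest regulators (Erbb3), 1 of 5 glial genes (Mbp) and 1 of 8 transmitter genes (Slc5a7, -2.57 ± 0.57, adjusted p = 0.038) were lower and 0 higher. Dcx, Sox9, Gfra3 and Uchl1 kept their calls whichever library was left out; Gfra2 and Slc5a7 lost theirs without either control intestine library or without control stomach replicate 1 (highest adjusted p 0.088 and 0.21), Slc5a7 being at -1.30 without control stomach replicate 1 and at -3.23 without replicate 2, and Rbfox3 (-2.02 ± 0.37, adjusted p = 0.019) without control intestine replicate 1 or control stomach replicate 2 (highest 0.12). On the spike-in scale Dcx (-4.29) and Sox9 (-3.10) passed and the other 5 did not. Endothelial markers moved in this comparison too: 4 of 6 were higher in intestine, beside 1.68% of all genes. Their list summed to 15.3 and 19.4 against 15.2 and 14.4 CPM. Kdr, the top marker, went the other way without passing the test (7.27 against 10.8 CPM, log2 fold change -0.57). Cldn5, 1 of the 4, was at 0 in control stomach replicate 2 and passed the low-count filter only through knockout libraries. The part of endothelial cells in the result was not tested.

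Knockout and control stomach were compared to ask what removing Eed changes in that organ. Stmn2 was higher in knockout stomach, 41.4 ± 4.04 against 4.66 ± 0.864 CPM (mean ± SD, n = 2 each), 8.88-fold (log2 fold change 3.15 ± 0.33, adjusted p = 0.0022), and it passed the test without any 1 of the 4 libraries (adjusted p 0.0068 to 0.03). It was the 1 of the 6 genes that passed upward and 0 passed downward, beside 4.84% and 0.808% of all genes tested. Tubb3 was at 1.21 ± 0.52 (adjusted p = 0.22) and Elavl4 at 0.25 ± 0.24 (adjusted p = 0.59), and with 1 library left out Tubb3 ran from 0.652 to 2.17 and Elavl4 from 0.16 to 0.34. The receptors and Sox10 lay between 0.13 and 0.32, with adjusted p from 0.70 to 0.92, and their directions depended on the fit: DESeq2 with a factor estimated from the spike-ins put Ednrb at -0.756 and Sox10 at -0.227, and with 1 library left out Sox10 ran from -0.471 to 1.25 and Ret from -0.04 to 0.833. That DESeq2 fit called 364 genes higher and 334 lower, against 785 and 131 in the reported fit. The median of the 6 was 0.29. On the spike-in scale, where all genes are moved together, all 6 passed with values from 2.59 for Ednrb to 5.60 for Stmn2, as did 15438 of the 16218 genes tested.

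Genes around the members moved in both directions in knockout stomach, beside 4.84% of all genes tested higher and 0.808% lower. Of 12 neural crest regulators 3 were higher and 0 lower: the transcription factor Tfap2b, absent from control stomach and at 4.84 ± 1.49 CPM in knockout stomach (at least 59.2-fold higher, against a floor of 3 counts per library; adjusted p = 0.0079), the adhesion molecule L1cam (2.82 ± 0.64, adjusted p = 0.039) and the neurotrophin receptor Ngfr. In that list Foxd3, Tfap2b and Tlx2 passed the low-count filter only through knockout libraries, as did Edn1, S100b, Npy and Stmn3 below, so the shares called among tested genes do not measure these lists. Of 18 neuronal genes, 2 were higher (Cntn2, Nefm) and 1 lower. The growth cone protein Gap43 was lower at 4.8 and 4.39 against 13.3 and 13.7 CPM (-1.55 ± 0.15, adjusted p = 0.0014), a value that spike-in scaling turned to 0.81. The Ret ligand Gdnf was lower, 27.8 ± 0.984 against 71.5 ± 7.09 CPM (-1.36 ± 0.10, adjusted p = 0.00065), with 1.03 on the spike-in scale, and with it 3 of the 12 GDNF and endothelin genes tested were higher (Edn1, Gfra2, Gfra3) and 2 lower (Edn2, Gdnf), Edn2 turning to 1.21 on the spike-in scale. Of 5 glial genes S100b was higher (2.24 ± 0.35, adjusted p = 0.011) and Fabp7 lower (-1.96 ± 0.33, adjusted p = 0.014; 0.26 on the spike-in scale). Npy was the 1 of 8 transmitter genes that was higher (3.34 ± 0.60, adjusted p = 0.017). In the members' gene families, Stmn3 was higher (2.53 ± 0.59, adjusted p = 0.043) and Tubb2a lower (-1.11 ± 0.13, adjusted p = 0.0028; 1.28 on the spike-in scale) of 13 tested. Of 11 such genes, picked by size of change after the values were seen, Tfap2b, Gap43 and Gdnf kept their calls whichever of the 4 libraries was left out; Tubb2a was at -0.98 without control stomach replicate 2, and the other 7 lost theirs in 2 or more of these 4 fits, with highest adjusted p from 0.083 (Fabp7) to 0.22 (Stmn3). In these fits L1cam was at 1.89 without knockout stomach replicate 2 and 3.56 without control stomach replicate 2, Npy at 2.69 and Stmn3 at 3.38 also without control stomach replicate 2, and Npy without control stomach replicate 1 rested on 84 counts against 2, a ratio of 22.3 with a counting interval of 5.99 to 187. DESeq2 with the spike-in factor did not call 6 of the 11 (Npy, L1cam, Stmn3, S100b, Fabp7, Edn2).

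Endothelial markers also moved with Stmn2 in stomach. Of 6 markers, 4 were higher in the knockout, beside 4.84% of all genes tested. The sum of the 6 was 24.3 and 44.8 CPM in knockout and 15.2 and 14.4 CPM in control, with Kdr at the top. Cldn5, 1 of the 4, passed the low-count filter only through knockout libraries. Among macrophage markers Mrc1, 1 of the 3 tested, was higher, with sums of 4.96 and 2.99 against 0.986 and 1.43 CPM and Ptprc at 0 in all 4 stomach libraries. The part of these cells in the result was not tested. Mesenchyme markers passed in 0 of 7 by edgeR and summed to 12952 and 19206 CPM in knockout and 12679 and 15637 CPM in control. The neuronal list summed to 142 and 148 CPM in knockout stomach and 159 and 133 CPM in control stomach, so these sums overlapped while Stmn2 did not.

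The same question was asked of the intestine. Stmn2 was higher in knockout intestine, 17.0 ± 8.10 against 1.28 ± 0.0976 CPM (mean ± SD, n = 2 each), 13.3-fold (log2 fold change 3.73 ± 0.36, adjusted p = 0.0035). It was again the 1 of the 6 genes that passed upward with 0 downward, beside 2.38% and 0.228% of all genes tested. These shares are 386 genes higher and 37 lower, or 91.25% upward, whereas DESeq2 with the spike-in factor called 320 and 167, or 65.71% upward. Without control intestine replicate 1 its log2 fold change was 3.65 and the adjusted p 0.056, within a leave-one-out range of 0.00071 to 0.056, and without knockout intestine replicate 1 it was at 3.14. Ret was at 1.60 ± 0.48 (adjusted p = 0.15; called without the low-count filter) and Tubb3 at 0.89 ± 0.55 (adjusted p = 0.59), with leave-one-out ranges of 0.932 to 2.04 and 0.303 to 1.3. Ednrb was at -0.65 ± 0.26 (adjusted p = 0.31), and without knockout intestine replicate 2 it was called lower (-1.18, adjusted p = 0.015, leave-one-out range 0.015 to 0.73), whereas spike-in scaling put it at 1.38 and DESeq2 with a factor estimated from the spike-ins called it at -1.44. Sox10 was at 0.21 and Elavl4 at -0.03, the latter turning to 1.68 on the spike-in scale, and with 1 library left out they ran from -0.105 to 0.467 and from -0.37 to 0.246. The median of the 6 was 0.55. Sox10 (1.91), Ret (3.19), Tubb3 (2.5) and Stmn2 (5.36) passed on that scale, where 13688 of 16218 genes passed.

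Fewer genes of the surrounding lists passed in knockout intestine than in knockout stomach. Of all genes tested, 2.38% were higher and 0.228% lower, against 4.84% and 0.808% in stomach. Tfap2b, at 0 counts in control intestine, was at 0.976 and 2.57 CPM in the knockout (at least 19.1-fold higher, adjusted p = 0.033) and was the 1 of 12 neural crest regulators that passed the test. It passed the low-count filter only through knockout libraries, as Foxd3 and Tlx2 did, so that share does not measure the list. The intermediate filament gene Ina (2.26 ± 0.46, adjusted p = 0.048) was the 1 of 18 neuronal genes that was higher. Sox9, a relative of Sox10, was higher at 4.52 ± 0.948 against 1.08 ± 0.138 CPM (2.07 ± 0.22, adjusted p = 0.0053), 1 of 13 in the gene families. Glial, transmitter and GDNF and endothelin genes gave 0 calls of 5, 8 and 12 by edgeR. With 1 library left out the sizes of the Sox9 and Ina changes held while the calls did not always. Sox9 was at 1.84 to 2.27 and not called without control intestine replicate 1. Ina was at 1.90 to 2.55 and not called in any of the 4 fits or by DESeq2 with the spike-in factor. Tfap2b, at 0 counts in both controls, was not called without either of them. Its fitted fold change moved by 1.80 times without knockout intestine replicate 2, so the 19.1-fold bound leans on that library. Endothelial sums were 45.8 and 45.6 CPM in knockout intestine and 15.3 and 19.4 CPM in control, with 2 of 6 markers higher (Cdh5, Cldn5, the latter through the low-count filter only by way of knockout libraries) and Kdr at the top, and their part in the result was not tested. Macrophage markers summed to 1.58 and 1.88 CPM in knockout and 1.04 and 1.28 CPM in control intestine.

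Knockout intestine was compared with knockout stomach to see which organ differences remain without Eed. Stmn2 was lower in intestine, 17.0 ± 8.10 against 41.4 ± 4.04 CPM (n = 2 each), 2.44-fold (log2 fold change -1.29 ± 0.30, adjusted p = 0.049). Of the 6 genes 0 passed upward and 1 downward, beside 1.46% and 2.94% of all genes tested, and the median of the 6 was -0.30. Ednrb was 124 ± 53.8 against 60.0 ± 5.21 CPM and did not pass the test (1.05 ± 0.26, adjusted p = 0.062), while DESeq2 with and without a spike-in factor, upper quartile factors, a fit without the low-count filter and a replicate block (1.01, adjusted p = 0.021) each called it (range of adjusted p over all alternatives 9.4e-09 to 1). A block for each genotype and replicate number did not, with its log2 fold change under 1 (0.984, adjusted p = 0.0047). The other members lay between -0.56 and -0.07, and with 1 library left out Sox10 ran from -0.734 to 0.121, Ret from -0.893 to 0.221, Elavl4 from -0.409 to 0.209 and Tubb3 from -1.15 to -0.152. The Stmn2 call was lost without knockout intestine replicate 2 (-0.86, adjusted p = 0.057) and without knockout stomach replicate 1 (-1.38, 0.11) or replicate 2 (-1.18, 0.20), in a leave-one-out range of 0.0059 to 0.20, and also on the spike-in scale (-1.80), with upper quartile factors (-1.27) and when only these groups were fitted (-1.27); without knockout intestine replicate 1 it was at -1.88. Ednrb was called higher without knockout intestine replicate 1 (1.44, adjusted p = 0.0034; range 0.0034 to 0.22).

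Among other genes, Dcx (1.15 against 25.4 CPM, -4.45 ± 0.30, adjusted p = 0.00063), Gfra3 (-3.22 ± 0.32, adjusted p = 0.0022) and Sox9 (4.52 against 14.3 CPM, -1.66 ± 0.19, adjusted p = 0.0041) were lower in knockout intestine than in knockout stomach, and Gdnf was higher (69.0 against 27.8 CPM, 1.31 ± 0.10, adjusted p = 0.0012). These 4 kept their calls whichever of the 4 libraries was left out, but on the spike-in scale Gdnf (1.09) and Sox9 (-1.78) did not pass, nor did Edn3, Fabp7, S100b and Syt1 below. Of all genes tested, 1.46% were higher and 2.94% lower. By list, 4 of 18 neuronal genes were lower (Dcx, Elavl2, Map2, Syt1) and 2 of 13 family genes (Elavl2, Sox9). Also lower were 1 of 8 transmitter genes (Tac1) and 0 of 12 neural crest regulators. Of 5 glial genes Fabp7 was higher and S100b lower, and of 12 GDNF and endothelin genes Edn3 and Gdnf were higher and Gfra3 lower. Tac1 passed the low-count filter only through the knockout stomach libraries, where it is high, so its call does not measure the list; it rested on 1 count in knockout intestine and 39 in knockout stomach, a ratio of 38.6 with a 95% counting interval of 6.53 to 1563. Tac1, S100b and Syt1 lost their calls without any 1 library, Fabp7 without knockout stomach replicate 2 (adjusted p at most 0.087) and Edn3 without replicate 1 of either organ (log2 fold change down to 0.88). Edn3, at 1.00 ± 0.13, lay at the fold threshold, and a replicate block and the spike-in scale (0.70, adjusted p = 1) also ended its call.

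The organ difference of the knockout effect, the effect in intestine minus the effect in stomach, was tested with an adjusted p under 0.2 as its threshold. By edgeR 0 of the 6 genes passed in either direction, beside 0.191% of all genes tested upward and 0.271% downward, and the 6 had unadjusted p of 0.058 or more; DESeq2 also called 0. The values were 1.27 ± 0.65 for Ret (unadjusted p = 0.087, adjusted p = 0.96), -0.82 ± 0.37 for Ednrb (0.058, 0.88) and 0.58 ± 0.47 for Stmn2 (0.25, 1.00), which turned to -0.239 on the spike-in scale. Sox10, Elavl4 and Tubb3 lay between -0.32 and 0.08, Sox10 turning from 0.08 to -0.695 on that scale, and the median of the 6 was -0.10. With 1 library left out Ret ran from 0.61 to 1.72, Sox10 from -1.03 to 0.682, Tubb3 from -1.28 to 0.237 and Stmn2 from -0.01 to 0.998. Of the surrounding lists, 1 of 18 neuronal genes (Gap43) and 1 of 13 family genes (Sox9) passed upward, and by edgeR 0 of 12 neural crest regulators, 5 glial, 8 transmitter and 12 GDNF and endothelin genes passed. Without knockout intestine replicate 2 Ednrb was called at -1.35 (adjusted p = 0.068; leave-one-out range 0.068 to 1). The Stmn2 increases of stomach and intestine were thus not shown to differ. The 4 organ and knockout comparisons share libraries with each other, so their values are set side by side and not taken as independent.

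**Figure D2:**
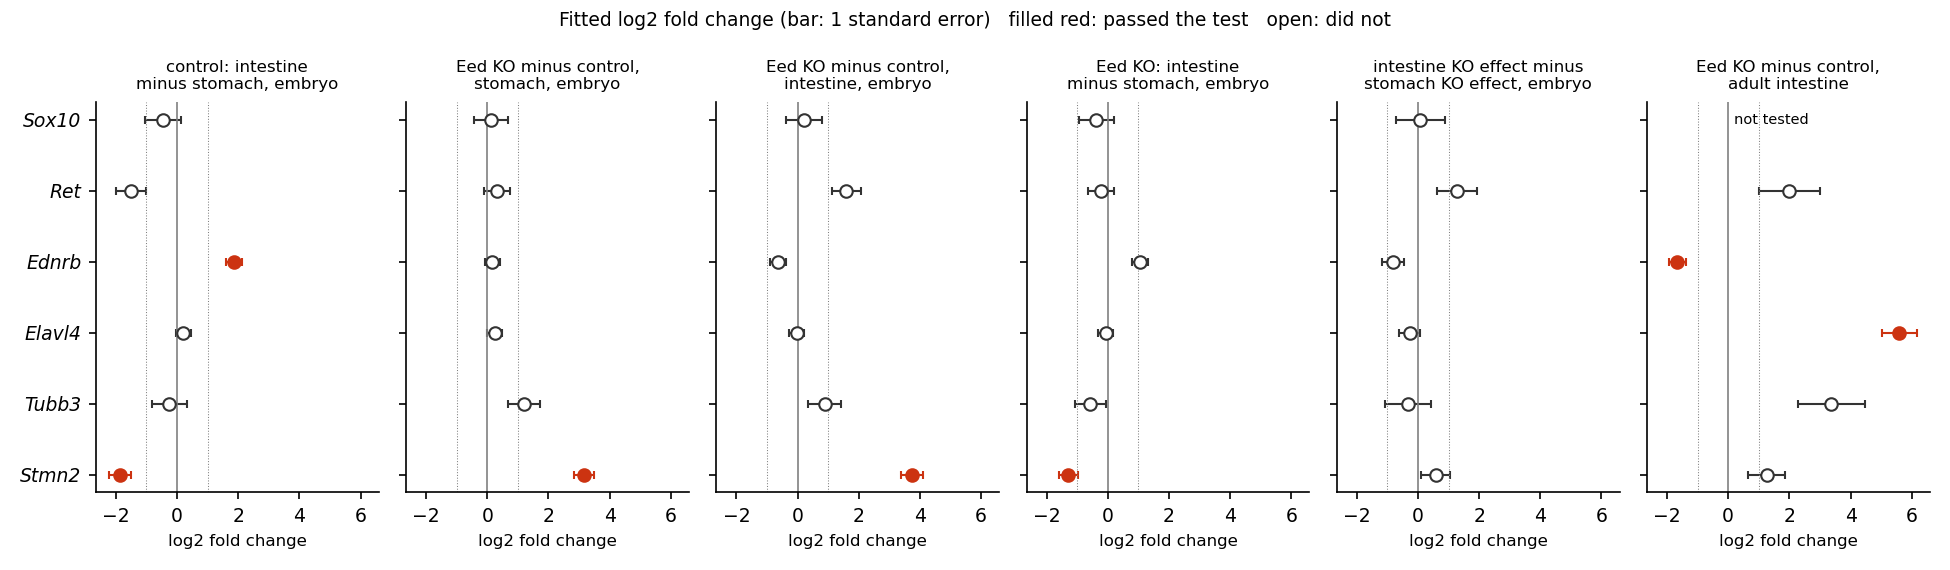
Fitted log2 fold change (horizontal axis) of the 6 genes in the 6 comparisons, with bars of 1 SE; filled red points passed the test, open points did not, and dotted lines mark a log2 fold change of 1 in either direction. Stmn2 is at 3.15 in stomach and 3.73 in intestine, and in the adult the passing genes are Elavl4 at 5.59 and Ednrb at -1.66.

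In the adult intestine, knockout was compared with control to ask what removing Eed changes in mature mesenchyme. Elavl4 was higher, 9.10 ± 1.18 against 0.178 ± 0.0451 CPM (mean ± SD, n = 2 each; log2 fold change 5.59 ± 0.58, adjusted p = 0.00087). Its summed counts were 206 in knockout and 5 in control, a ratio of 50.3 with a 95% counting interval of 21.2 to 156. Ednrb was lower, 120 ± 11.2 against 379 ± 127 CPM, 3.16-fold (-1.66 ± 0.27, adjusted p = 0.0057). Both passed whichever library was left out, Elavl4 at 5.36 to 5.87 and Ednrb at -1.96 to -1.28. Of the 6 genes, 5 of them tested, 1 thus passed upward and 1 downward, beside 12.3% and 7.23% of all genes tested. Elavl4, Tubb3 and Ret passed the low-count filter only through the knockout libraries and Sox10 did not pass it. The share called among tested genes therefore does not measure the members, and no median over the genes tested is given.

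The remaining adult values lay above 0 without passing the test. Tubb3 was at 3.37 ± 1.09 (adjusted p = 0.065), and its 68 counts against 8 give a ratio of 10.4 with a counting interval of 4.98 to 25.0. Ret was at 2.00 ± 1.00 (adjusted p = 0.19) and Stmn2 at 1.26 ± 0.61 (adjusted p = 0.18), with 0.62 to 1.85 for Stmn2 when 1 library was left out. Without control replicate 1 Tubb3 was at 2.40, and without control replicate 2 Ret was at 1.14. Tubb3 was called without control replicate 2, which leaves a control library with 0 counts and a lower bound of 13.8-fold (adjusted p = 0.0085; leave-one-out range 0.0085 to 0.18), on the spike-in scale (2.84) and by DESeq2 (3.43). Ret was called without control replicate 1 (4.49, adjusted p = 0.034; range 0.034 to 0.61), where 81 counts against 2 give a ratio of 25.2 with a counting interval of 6.77 to 212. Without the low-count filter Ret (1.96) and Tubb3 (3.34) were both called.

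Of the 13 transmitter genes 4 were higher in adult knockout and 0 lower, beside 12.3% and 7.23% of all genes tested, and 7 did not pass the low-count filter. The peptide genes Vip, Gal and Cartpt passed it only through the knockout libraries, where they are high, so the share called among tested genes does not measure the list. Vip was absent from control and at 7.48 ± 3.47 CPM in knockout (at least 34.8-fold higher, adjusted p = 0.0026). Gal stood at 16.8 ± 7.04 against 0.393 ± 0.0385 CPM (41.8-fold, adjusted p = 0.00067) and Cartpt at 6.75 ± 0.250 against 0.251 ± 0.0584 CPM (25.9-fold, adjusted p = 0.0021). These 2 folds rest on 11 control counts for Gal and 7 for Cartpt, and no counting interval was computed for them. The fourth gene was the decarboxylase Ddc (1.65 ± 0.47, adjusted p = 0.043). Summed over the 13 genes of the list, CPM was 25.5 and 19.5 in control and 63.8 and 59.3 in knockout. Of 19 neuronal genes, 8 of them tested, the synaptic gene Snap25 was higher and 0 were lower, from 0 counts to 4.62 ± 1.84 CPM (at least 21.5-fold, adjusted p = 0.0042). Of 7 glial genes, 5 of them tested, Cdh19 was higher (at least 6.81-fold, adjusted p = 0.012) and Gpm6b lower (82.6 against 178 CPM, -1.11 ± 0.20, adjusted p = 0.0083). Snap25, Gap43 and Scg2 of the neuronal list and Cdh19 and Gfap of the glial list also passed the filter only through knockout libraries. The 4 neural crest regulators tested gave 0 calls by edgeR, with 5 of the 12 at 0 counts in each knockout library.

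Of 9 GDNF and endothelin genes tested in the adult, 3 were lower and 0 higher, beside 7.23% and 12.3% of all genes: the Ednrb ligand Edn3 (5.23 ± 0.836 against 33.8 ± 6.25 CPM, -2.69 ± 0.29, adjusted p = 0.00097), Gfra2 (12.4 against 35.6 CPM, -1.52 ± 0.24, adjusted p = 0.0053) and Ednra, the other endothelin receptor (78.1 ± 11.8 against 187 ± 25.4 CPM, -1.26 ± 0.21, adjusted p = 0.0066). Of 12 genes in the members' families, Tubb6 was higher and Ednra and Sox9 (-1.18 ± 0.20, adjusted p = 0.007) were lower. Of 11 adult genes, picked by size of change after the values were seen, 8 kept their calls whichever library was left out. Cdh19 lost its call without control replicate 1 or 2 or knockout replicate 1. Without knockout replicate 2 Cdh19 kept 13 counts, all in knockout replicate 1, and was not tested. Ddc lost its call without any 1 library and Gpm6b without control replicate 1 (-0.95). On the spike-in scale Ddc (1.18) and Gpm6b (-1.50, adjusted p = 0.059) did not pass.

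Markers of other cell types differed strongly between the adult groups, beside 12.3% of all genes tested higher and 7.23% lower. All 5 macrophage markers were higher in knockout, summing to 5384 and 5346 CPM against 147 and 219 CPM in control, with C1qa at the top in knockout (1797 and 2001 CPM) and no marker at 0. Mesenchyme markers summed to 3733 and 2628 CPM in knockout and 8885 and 9189 CPM in control, with 3 of 6 tested lower (Col1a1, Col3a1, Pdgfra), Col3a1 at the top and Nkx3-2 at 0 in control replicate 2 and knockout replicate 1. Smooth muscle markers summed to 3149 and 3707 against 1820 and 2257 CPM, with 3 of 6 higher and Acta2 at the top, and endothelial markers to 149 and 220 against 97.3 and 96.8 CPM, with 2 of 6 higher (Cldn5, which passed the filter only through knockout libraries, and Pecam1) and Pecam1 at the top. The part of these cell types in the Elavl4 and Ednrb results was not tested.

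**Figure D3:**
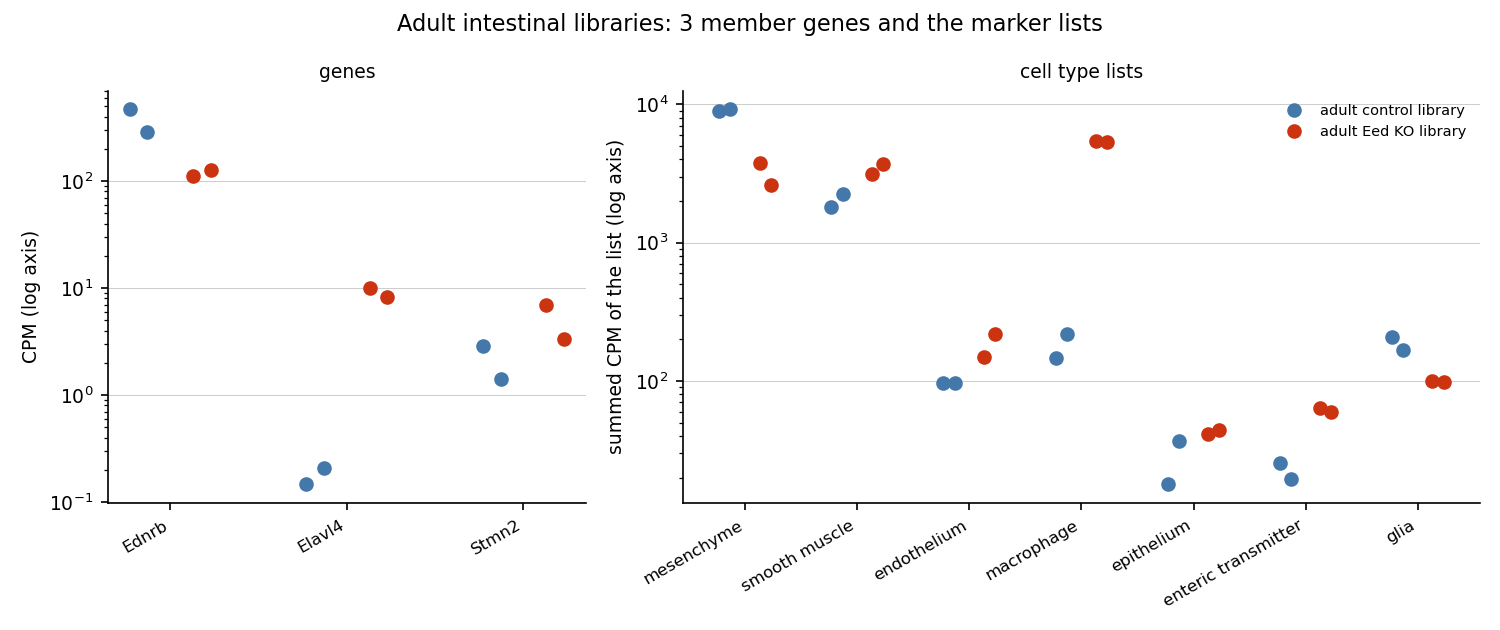
Adult intestinal libraries, blue for control and red for Eed knockout, 1 point per library: CPM of 3 members (left) and summed CPM of 7 marker lists (right), both on log axes. Elavl4 lies at 8.27 and 9.94 CPM in knockout against 0.146 and 0.210 CPM in control, and the macrophage list at 5346 and 5384 against 147 and 219 CPM. The glial sum is mostly Gpm6b: 197 of 207 and 159 of 168 CPM in control, 81.6 of 99.9 and 83.6 of 97.9 CPM in knockout.

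Open chromatin at the promoters was read from the 4 deposited ATAC-seq peak lists, 1 per embryonic group, in which the authors had pooled replicates, so presence of a peak can be described but not tested between groups. A promoter peak is one that overlaps the 1000 bp on either side of the transcription start. Sox10, Ret, Ednrb, Elavl4 and Tubb3 had a promoter peak in all 4 lists. Stmn2 had none in either control list and one in both knockout lists. The count was therefore 5 of 6 in control intestine (45.4% of 41670 genes), 5 of 6 in control stomach (46.3%), 6 of 6 in knockout intestine (47.5%) and 6 of 6 in knockout stomach (47.4%). The pattern of a promoter peak in both knockout lists and neither control list was seen in 384 genes, 0.922% of all, and 1 of the 6 members had it.

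Peak strength at the 5 constantly open promoters varied little between lists. Fold enrichment over local background ran from 8.05 to 10.3 for Elavl4, 7.86 to 9.06 for Tubb3, 5.92 to 6.42 for Ednrb, 4.44 to 5.32 for Ret and 2.41 to 2.59 for Sox10. The Sox10 peaks had -log10 q from 1.78 to 3.22, and a minimum of 5 removes them from all 4 lists. The promoters of Elavl4 and Ednrb, whose RNA passed the test in the adult, were thus open in every embryonic group, and no adult chromatin was measured.

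At the Stmn2 start, knockout intestine had a peak at chr3:8509322-8509613 (292 bp, fold enrichment 3.96, -log10 q 6.05), from 38 bases before the start to 253 after it. Flanking peaks stood at chr3:8508139-8508270 (fold 4.02) and chr3:8510962-8511720 (fold 3.92). Knockout stomach had a single peak over the same stretch, chr3:8508154-8511714 (3561 bp, fold 3.84, -log10 q 8.61), from 1206 bases before the start to 2354 after it. Control intestine had no peak within 5000 bp of the start, and control stomach had one at chr3:8511114-8511709, 1754 to 2349 bases downstream of it (fold 2.64, -log10 q 1.58), which a window of 5000 bp counts. These intervals cover the upstream flank, the start and the 5′ part of the Stmn2 gene. Of the 384 genes with this peak pattern 91 were tested for RNA, and 8 were called higher in knockout intestine, 5 in knockout stomach and 4 in both, Stmn2 among the latter, beside 2.38% and 4.84% of all genes tested in intestine and stomach. Rbfox3 was the 1 gene of the surrounding neural lists that shared the pattern. The reverse pattern, a promoter peak in both control lists and neither knockout list, was seen in 96 genes.

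**Figure D4:**
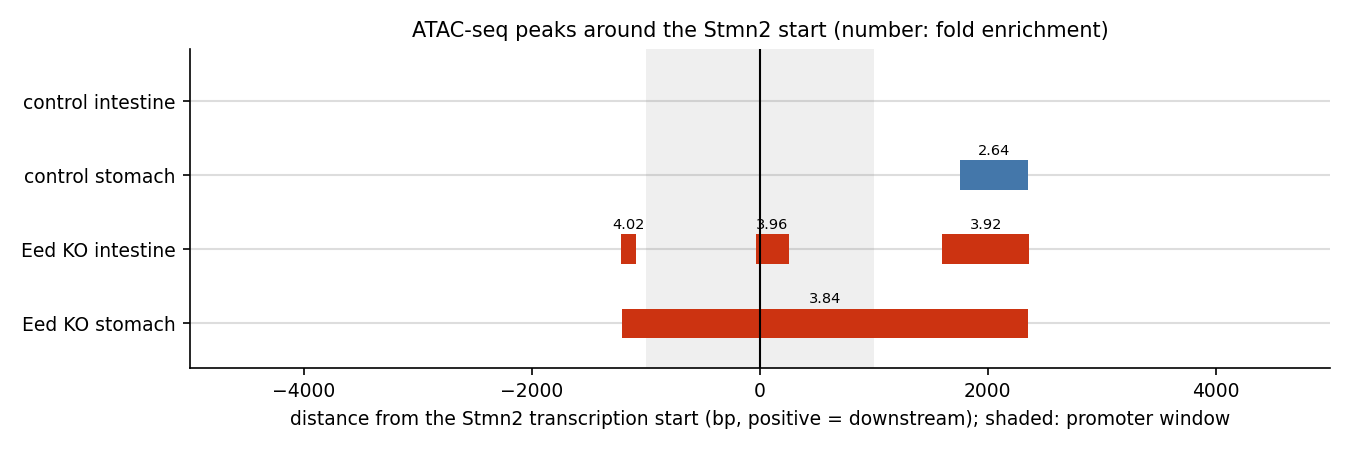
ATAC-seq peaks within 5000 bp of the Stmn2 transcription start (horizontal axis, distance in bp, positive downstream) in the 4 embryonic peak lists, blue for control and red for Eed knockout, with the fold enrichment above each peak and the promoter window shaded. Knockout intestine and knockout stomach have peaks over the start (fold 3.96 and 3.84), control stomach has 1 peak downstream (2.64) and control intestine has none.

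Promoter sequences are shown for the members whose start lay in open chromatin in the embryo and that are in the set of RefSeq (GRCm38.p6) promoters used, 3 of the 6: Ednrb, Elavl4 and Tubb3. Sox10, Ret and Stmn2 are not in that set. Each sequence runs 5′ to 3′ on the strand of the gene, from 250 bases before the RefSeq start to 50 after it. Ednrb is at chr14:103843652-103843951 (minus strand), Elavl4 at chr4:110351862-110352161 (minus strand, the closest of 4 entries) and Tubb3 at chr8:123411303-123411602 (plus strand). Capitals mark GGGCGG, the GC box, and the CCAAT box, which in these sequences reads ATTGG on the printed strand.
Ednrb: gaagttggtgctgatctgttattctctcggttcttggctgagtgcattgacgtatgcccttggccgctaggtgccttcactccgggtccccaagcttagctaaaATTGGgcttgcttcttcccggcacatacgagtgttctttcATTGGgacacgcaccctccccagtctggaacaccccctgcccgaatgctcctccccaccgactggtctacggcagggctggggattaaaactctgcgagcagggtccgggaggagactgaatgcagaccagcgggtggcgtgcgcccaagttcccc
Elavl4: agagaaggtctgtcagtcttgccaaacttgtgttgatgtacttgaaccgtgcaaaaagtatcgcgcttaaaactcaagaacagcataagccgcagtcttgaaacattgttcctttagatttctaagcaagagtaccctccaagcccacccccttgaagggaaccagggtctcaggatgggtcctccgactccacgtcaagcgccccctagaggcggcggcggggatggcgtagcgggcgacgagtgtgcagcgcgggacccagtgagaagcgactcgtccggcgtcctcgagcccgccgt
Tubb3: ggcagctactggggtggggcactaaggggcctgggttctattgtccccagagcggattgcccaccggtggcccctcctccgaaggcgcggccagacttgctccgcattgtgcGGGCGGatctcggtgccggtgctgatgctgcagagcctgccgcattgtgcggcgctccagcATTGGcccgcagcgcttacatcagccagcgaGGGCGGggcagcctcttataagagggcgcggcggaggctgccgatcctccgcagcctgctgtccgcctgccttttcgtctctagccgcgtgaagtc

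Both strands were searched for 4 motifs. The GC box (GGGCGG) was found 2 times in Tubb3 and in neither of the others, and 35.7% of 32851 RefSeq promoters of this length hold it. The CCAAT box (CCAAT) was found 2 times in Ednrb and 1 time in Tubb3, with a share of 37.4%. The E box (CANNTG, 72.3%) and the TATA box (TATAAA, 13.6%) were in 0 of the 3 windows. Content of C and G was 58.7% in Ednrb, 57.0% in Elavl4 and 67.3% in Tubb3, against a median of 52.7%, and CpG pairs numbered 15, 23 and 26 against a median of 7. Peaks covered all 300 bases of the Ednrb window in the 4 lists, 280 to 300 of Tubb3, and 300 of Elavl4 in 3 lists with 190 in control intestine. The RefSeq start of Ednrb lies 472 bases downstream of the start in the count table's annotation, and that of Tubb3 129 bases downstream.

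For each member, the 3 genes whose profile over the 8 embryonic libraries was most like its own were found by the root mean square difference of centred log2(CPM + 0.5) values. Nearest to Stmn2 were Nrn1 (0.380), Hoxb9 (0.424) and Foxc1 (0.432). The mean level of Nrn1 was 0.542, 9.38, 1.39 and 17.8 CPM in control intestine, knockout intestine, control stomach and knockout stomach. Nearest to Ednrb were Stard8 (0.228), Lrba (0.234) and Tnfrsf11b (0.255), and Lrba stood at 146, 86.9, 42.3 and 50.3 CPM in the same order. The nearest to Ret were Pdgfb (0.149), Ugt2b34 (0.157) and Rasd1 (0.171), to Sox10 Adnp (0.138), Fhl4 (0.149) and Arhgef16 (0.149), and to Tubb3 Th (0.194), Tmem163 (0.210) and Slc5a5 (0.210). Ugt2b34 and Tmem163 each averaged 0.0730 CPM in control intestine, under the detection floors of 0.0843 and 0.101 CPM there. The 0.5 added to CPM shrinks differences between such low values. Elavl4 was nearest to the noncoding transcripts A530083I20Rik (0.0738), 9230116N13Rik (0.0782) and Mccc1os (0.0873), which like it varied little.

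As a comparison list, 15 transcription factor genes of central nervous system determination were counted in the same fits. Of the 15, 4 were higher in knockout stomach (Nkx2-2, Pax6, Sox2, Sox3), beside 4.84% of all genes tested, and 3 in knockout intestine (Isl1, Pax6, Sox2), beside 2.38%, with 0 lower in either. Only 7 passed the low-count filter, and Nkx2-2, Pax6 and Sox3 had at most 4 counts in a control stomach library, so they passed it through knockout libraries and the share called among tested genes does not measure the list. Between control organs 0 were higher and 1 lower in intestine (Isl1), and between knockout organs 0 higher and 4 lower, with 0 passing for the organ difference of the effect by edgeR. In the adult 1 of the 15 was tested and 0 were called. Across all genes 296 were called higher in both embryonic knockout organs, and Stmn2 was the 1 member among them, as Tfap2b was among the neural crest regulators.

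Of the remaining marker lists, epithelial genes summed to 34.0 to 69.7 CPM and mesothelial genes to 292 to 505 CPM in embryonic libraries, and in the embryonic knockout comparisons neither list, nor interstitial cells of Cajal, smooth muscle or erythroid genes, had a gene called by edgeR. Mesothelial Wt1 was lower in intestine than in stomach in both genotypes, the epithelial genes Cldn6 and Epcam were lower in control intestine, and Des and Etv1 were higher there. In knockout intestine 4 of 6 smooth muscle genes were higher than in knockout stomach, beside 1.46% of all genes tested. Their list summed to 3243 and 5520 against 1820 and 2059 CPM. Mrc1 was lower in knockout intestine. In the adult these epithelial, mesothelial, Cajal and erythroid lists gave 0 calls of 4, 4, 3 and 1 tested.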

How the data were processed

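The deposited count tables hold counts of reads per gene, which the authors made by trimming with Trimmomatic 0.32, aligning to GRCm38/mm10 with STAR and counting over GENCODE exons with featureCounts. The peak lists give fold enrichment and -log10 q as deposited by the authors, who aligned ATAC-seq reads with BWA 0.7.8, pooled replicates and called peaks with MACS2 2.1.2. Embryonic RNA libraries were made with a stranded kit and adult libraries with an unstranded low-input kit.

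From the counts, edgeR 4.0.16 (R 4.3.3) computed TMM factors, kept genes by filterByExpr with a minimum count of 10 (at least 2 libraries at its CPM limit), and ran the quasi-likelihood test with Benjamini-Hochberg adjustment. One fit held the 8 embryonic libraries with 4 group means and another the 4 adult libraries. The SE of a log2 fold change was its size divided by the root of its F statistic. Of the genes kept, 812 in the embryo and 811 in the adult passed through knockout libraries only, with fewer than 2 control libraries at the limit. Calls needed a log2 fold change beyond 1 in either direction, with the adjusted p below 0.05, or below 0.2 for the organ difference of the effect. The biological coefficient of variation was 15.8% in the embryo and 29.1% in the adult. CPM used TMM-scaled library sizes, and TPM used the gene lengths of the adult table. The 99 spike-in transcripts (92 ERCC and 7 SIRV) were left out of the gene tests and used for spike-in scaling, with totals from 4871 to 51382 counts per library. Scripts were tested on simulated data first. Python 3.11.15 with pandas 2.3.3, numpy 2.4.6 and scipy 1.17.1 made the tables.

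The 6 members, the surrounding lists (neural crest regulators, glia, neuron, enteric transmitter, GDNF and endothelin signals, families of the members, central nervous system determination and markers of other cell types) and the processing were chosen with earlier results of these data known, and the membership of the neuron, glia and central nervous system lists was last edited after the results were seen, for reasons unrelated to the values. Genes of the lists were named by size of change, up to 6 per direction and comparison, where the higher group had at least 0.5 CPM. A fold against a group at 0 counts is a lower bound at a floor of 3 counts per library. Alternatives tried were DESeq2 1.42.0, upper quartile factors, no low-count filter, spike-in scaling, replicate blocks, DESeq2 with 1 factor estimated from the spike-ins, a fit of only the groups compared, each library left out in turn, and for peaks another window, a stricter threshold and overlap of the start itself. The spike-in factor was not fitted in the adult. The deposited peak lists were called on pooled replicates and reads of single ATAC-seq replicates were not used, so peaks were not tested between groups.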

Additional observations from a re-analysis of the deposited data

Results flagged for a closer look

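Among the genes around the members, 2 had a knockout effect that differed between the organs by the edgeR test of that difference (intestine minus stomach, adjusted p under 0.2, n = 2 per group). Gap43 differed by 1.85 (log2, adjusted p = 0.037), with a knockout effect of -1.55 in stomach and 0.29 in intestine. It stood at 13.3 and 13.7 CPM in control stomach and had means of 4.59 in knockout stomach, 3.71 in control intestine and 4.53 in knockout intestine, so control stomach stood above the other groups. Sox9 differed by 1.74 (adjusted p = 0.11), with effects of 0.32 in stomach and 2.07 in intestine.

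Gap43 passed in every fit that left out 1 library (adjusted p 0.056 to 0.19) and Sox9 lost its call in 6 of 8 such fits (up to 0.44). On the spike-in scale the differences were 1.31 and 1.32 and did not pass (adjusted p = 0.93 by edgeR). Groups hold 2 libraries, so single libraries were not tested as outliers. No technical or biological explanation was tested.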

How the results depend on the processing

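With 2 libraries per group, a fit that leaves 1 out assumes that the lone library varies like the other groups, and members with few counts (Sox10, Ret, Tubb3) have wide errors. For single genes, 246 values kept direction and call under other settings, 17 reversed, 20 gained and 6 lost a call; with 1 library left out these were 158, 20, 5 and 9. The cause of the changes below was not tested.

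Spike-in scaling moved the median of all genes by 0.30 (control organs), 2.39 (stomach), 1.85 (intestine), -0.24 (knockout organs), -0.54 (organ difference of the effect) and -0.42 (adult), and upper quartile factors moved it by -0.15 in the adult. On the spike-in scale the members called numbered 0 in control organs (2 in the reported fit), 6 in stomach (1), 4 in intestine (1) and 0 in knockout organs (1), and all genes called 155 (822), 15438 (916), 13688 (423) and 115 (714), with 20 (75) for the organ difference. That scale reversed Tubb3 (0.01) and Eed (0.231) in control organs, Eed (0.145) in stomach, Ednrb (1.38) and Elavl4 (1.68) in intestine, Eed (-0.147) in knockout organs, and Sox10 (-0.695), Stmn2 (-0.239) and Eed (-0.378) in the organ difference. Upper quartile factors put Elavl4 in intestine at 0.01. Of adult calls 63.04% were upward, against 46.63% on the spike-in scale and 53.69% with upper quartile factors.

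Without the low-count filter 2 members were called in intestine, 2 in knockout organs and 4 in the adult (2), with 800 genes in intestine and 237 for the organ difference. DESeq2 called 2 members in knockout organs, 685 genes in intestine and 207 for the organ difference. DESeq2 with 1 spike-in factor called 2 members in intestine, 2 in knockout organs and 239 genes for the organ difference; it reversed Eed (0.05) in control organs, Sox10 (-0.227) and Ednrb (-0.756) in stomach, Sox10 (-0.04) and Elavl4 (0.274) in intestine and Eed (-0.05) in the organ difference, and 52.15% of its calls in stomach (85.7%) and 65.71% in intestine (91.25%) were upward. Fitting only the groups compared called 0 members and 397 genes in knockout organs and 244 genes in intestine. Promoter peaks of the members numbered 22, 23 with a window of 5000 bp and 18 at a -log10 q of at least 5.

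The labels do not say whether same-numbered libraries are pairs, and the reported fits use no block. Deviations of same-numbered libraries correlated at 0.340 between control organs, 0.714 between knockout organs, 0.104 to 0.240 between embryonic genotypes and -0.0734 in the adult. A replicate block called 2 members in knockout organs and 187 genes for the organ difference. A block for each genotype and replicate number called 1 member and 1131 genes in knockout organs and 350 genes for the organ difference, where Sox10 was at -0.02.

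With each library left out in turn, members called ranged from 0 to 1 in control organs, 1 to 1 in stomach, 0 to 2 in intestine, 0 to 2 in knockout organs, 0 to 1 for the organ difference and 2 to 3 in the adult, and genes called from 370 to 500, 344 to 650, 74 to 363, 304 to 528, 27 to 97 and 2299 to 3126. Log2 fold changes that reversed ran from -1.05 to 0.666 for Sox10 and -0.80 to 0.719 for Tubb3 in control organs; -0.471 to 1.25 for Sox10 and -0.04 to 0.833 for Ret in stomach; -0.105 to 0.467 for Sox10 and -0.37 to 0.246 for Elavl4 in intestine. In knockout organs they ran from -0.734 to 0.121 for Sox10, -0.893 to 0.221 for Ret, -0.409 to 0.209 for Elavl4 and -0.242 to 0.385 for Eed, and for the organ difference from -1.03 to 0.682 for Sox10, -1.28 to 0.237 for Tubb3, -0.01 to 0.998 for Stmn2 and -0.183 to 0.444 for Eed.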
